A study of Mus musculus with 22 samples.

Results

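The oncostatin M and leukemia inhibitory factor receptor genes, their shared subunit, the transcription factor Stat3 and 3 feedback inhibitors were followed through the hypothalamus of mice given fibroblast growth factor 1 (FGF1). These 7 genes (Osmr, Lifr, Il6st, Stat3, Socs3, Socs2 and Cish) were taken by symbol from a list drawn up with earlier results of these data known, and all 7 were found among the 20668 genes counted in nuclei and the 16304 genes counted in whole cells. Each was read in annotated cell types of the nuclei (Agrp neurons among them) and in numbered clusters of the whole cells. Only types and clusters with at least 10 cells per mouse in 2 or more mice per group were compared. These were 18 nuclear types on Day 1, 11 on Day 5 and 16 whole-cell clusters on Day 5, and FGF1 was compared with vehicle in each. All mice were male ob/ob animals, which lack functional leptin and were obese and diabetic, of about 11 weeks of age. Each received a single intracerebroventricular (icv) injection, either 3 µg of FGF1 or vehicle with pair-feeding (PF) to the intake of the FGF1 mice, so the controls shared both the leptin deficiency and the restricted food. Single-nucleus RNA-seq (snRNA-seq) covered 3 FGF1 and 3 vehicle mice on Day 1 and 2 and 2 on Day 5, and single-cell RNA-seq (scRNA-seq) covered 6 and 6 other mice on Day 5. Each mouse was 1 sample and 1 replicate, and cell types of the same mice are not separate replicates.

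Il6st encodes gp130, the signaling subunit that receptors for interleukin 6, oncostatin M, leukemia inhibitory factor and ciliary neurotrophic factor have in common. Osmr and Lifr are partners of gp130, ligand binding activates Jak kinases, and the kinases phosphorylate Stat3, which enters the nucleus and raises transcription of targets that include its own gene and Socs3. Socs3 protein binds gp130 and the leptin receptor and shuts the signal off, Socs2 and Cish are induced mainly through Stat5 and restrain growth hormone and related receptors, and in astrocytes Stat3 is a known driver of the reactive state.

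The Day 1 nuclei numbered 8620 from FGF1 and 4586 from vehicle mice, the Day 5 nuclei 7986 and 3773, and the Day 5 cells 25767 and 29123. Total counts of unique molecular identifiers (UMIs) per mouse ran from 2721087 to 16345981 in nuclei and from 2652897 to 11866269 in cells. Median UMIs per nucleus were lower in the 3 Day 1 FGF1 mice (2029 to 2816) than in the 3 vehicle mice (3179 to 3776). In all, 318 nuclear barcodes (1.29%) and 1791 whole-cell barcodes (3.38%) occurred in more than 1 library. Nuclei labelled Astro, Tany and Epend carried the markers of astrocytes, tanycytes and ependymal cells (Tany and Epend beside astrocyte markers), while those labelled Olig, COP (committed oligodendrocyte precursors) and Micro also held neuronal marker RNA at 3281, 2737 and 3345 CPM (UMIs scaled to a library of fixed size) against 3706 in the neurons that the study left unassigned. Levels below are CPM per mouse after scaling between libraries, and because reads come from the 3′ end of transcripts, levels are compared between mice and cell types but not between genes.

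On the mouse build GRCm38, Socs3 lies at chr11:117966079-117970047 and Stat3 at chr11:100885098-100939540, both on the minus strand. Stat3 overlaps Stat5a on the other strand. Socs2 lies at chr10:95385362-95417180 and Osmr at chr15:6813577-6874969, also on the minus strand. Il6st (chr13:112464070-112510086), Lifr (chr15:7090614-7197489) and Cish (chr9:107296026-107302784) are on the plus strand. RefSeq start sites (GRCm38.p6) were matched for 6 of the 7 genes. The windows of 280 bases around them (250 before to 30 after the start) were searched for TTCNNNGAA, the core that Stat factors recognize, which reads the same on both strands. The Socs3 and Stat3 windows and 30 bases of the Cish window are shown because Socs3 and Stat3 carried most of the Day 1 differences and Cish held the most matches among the 6 genes. Capitals mark a match.

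Socs3, chr11:117969337-117969616, minus strand: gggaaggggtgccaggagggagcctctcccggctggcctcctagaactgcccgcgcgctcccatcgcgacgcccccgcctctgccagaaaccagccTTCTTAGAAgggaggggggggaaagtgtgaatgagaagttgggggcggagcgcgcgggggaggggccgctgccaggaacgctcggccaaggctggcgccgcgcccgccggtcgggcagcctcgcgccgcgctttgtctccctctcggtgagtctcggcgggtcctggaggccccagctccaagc
Stat3, chr11:100939511-100939790, minus strand: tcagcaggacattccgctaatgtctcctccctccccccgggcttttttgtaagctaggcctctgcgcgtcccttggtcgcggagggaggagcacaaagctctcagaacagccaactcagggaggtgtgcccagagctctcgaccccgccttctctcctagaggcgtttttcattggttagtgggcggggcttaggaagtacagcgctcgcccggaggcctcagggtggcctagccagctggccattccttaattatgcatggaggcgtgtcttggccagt
Cish, chr9:107296654-107296683, plus strand: cagttTTCCTGGAAagTTCTTGGAAatctg

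The Socs3 window held 1 match, from base -154 to -146 relative to the start, and by the annotation it falls inside the Socs3 gene, over an intron of one transcript and an exon of a non-coding one. Cish held 2, at bases 1 to 9 and 12 to 20, over its annotated 5′ untranslated region. The windows of Stat3, Osmr, Il6st and Lifr held none of these letters. Of 32851 promoter windows of this length, 2573 (7.83%) held at least 1 match and 134 (0.408%) at least 2. A match describes these letters and is not a bound site.

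On Day 1, the FGF1 mice had more Socs3 and Osmr RNA in astrocytes and tanycytes, more Stat3 RNA in 2 oligodendrocyte-lineage labels and more Socs2 RNA in Agrp neurons. Of the 126 combinations of 7 genes and 18 cell types, 29 had enough counts for edgeR's quasi-likelihood test, and 7 passed a false discovery rate (FDR) of 0.05 over all genes of the type, all of them higher with FGF1. Over all genes and types, 1.05% of tests passed in either direction and 0.653% were higher. The filter on low counts removed the other combinations, Cish in every type among them, and these are described without a test. An unadjusted p below 0.05 was reached by 21 of the 29. The FGF1 and vehicle mice did not overlap, with FGF1 higher, in 37 of the 126 combinations, and lower in 4. Among all tested genes 7.97% did not overlap in the higher and 7.82% in the lower direction, but 97 of the 126 combinations were untested. Of the 29 tested ones 21 were higher without overlap and 0 lower. Stat3 alone gave 17 of the 29 tests, in types that share the same mice. Socs3, Socs2 and Osmr were tested in only 2, 2 and 3 types, and the filter can admit a gene through the FGF1 group alone. The tally is therefore no support for a rise of the 7 genes as a set.

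**Figure D1:**
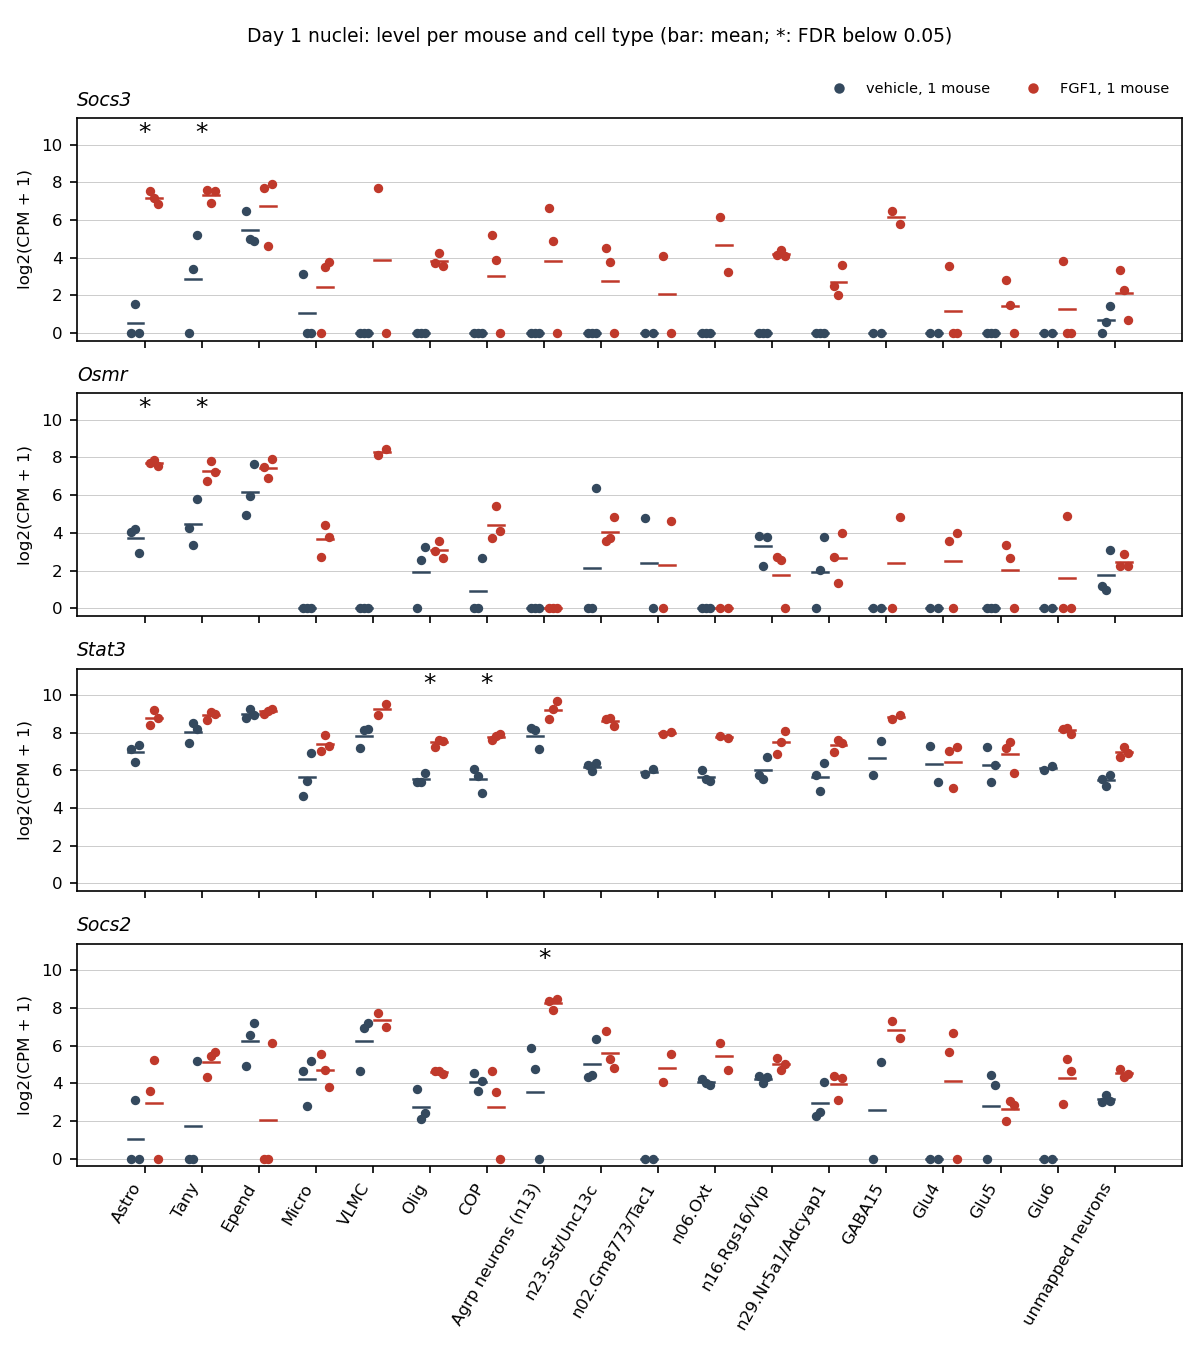
Day 1 levels of Socs3, Osmr, Stat3 and Socs2 in each of 18 nuclear cell types, as log2(CPM + 1), with a point for each mouse, bars at the group mean of those log values, and asterisks at an FDR below 0.05. Astrocyte Socs3 sits near 0 in all 3 vehicle mice and above 100 CPM in all 3 FGF1 mice, and Stat3 points of the FGF1 mice lie above the vehicle points in 15 of 18 types.

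Socs3, the feedback inhibitor of gp130 and of the leptin receptor, was close to undetected in vehicle astrocytes. FGF1 replicates 1, 2 and 3 had 187, 144 and 114 CPM in astrocytes, and vehicle replicates 1, 2 and 3 had 0, 1.9 and 0. All 3 FGF1 mice were high and the vehicle group rested on 1 UMI against 243. The mean rose from 0.65 ± 1.1 to 148 ± 37.0 CPM (SD, n = 3 and 3), a log2 fold change of 6.71 ± 0.72 (SE, edgeR FDR 0.00285), where 1.55% of all genes tested in astrocytes passed. Tanycytes, glia that line the floor of the third ventricle, had 193, 117 and 184 CPM in FGF1 mice and 0, 9.4 and 35.9 in vehicle mice. The groups did not overlap and the change was 3.77 ± 0.69 on the log2 scale (edgeR FDR 0.00464), in a cell type where 9.14% of genes passed. Both calls were lost when vehicle replicate 1 was left out (FDR 0.0563 and 0.0565), with the fold change still between 6.33 and 8.74 in astrocytes and between 3.02 and 4.87 in tanycytes over all alternatives.

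Elsewhere Socs3 counts were sparse. Its mean was higher with FGF1 in 18 of 18 types and the groups were apart in 7. Of all tested genes, 7.97% were apart in that direction. Vehicle mice had no Socs3 UMI in 13 of the 18 types, where any FGF1 UMI makes the mean higher. Only 2 of the 18 types could be tested, so these counts are no support for a rise in the others. Oligodendrocytes held 15 UMIs against 0, at least 5.6-fold higher when the vehicle group is set to 3 counts, a bound for counting error only. Agrp neurons held 14 against 0, at least 4.0-fold higher, but replicate 1 gave 97.6 CPM, replicate 2 gave 28.0 and replicate 3 gave 0. In ependymal cells the FGF1 mice had 209, 23.7 and 239 CPM and the vehicle mice 88.9, 31.1 and 28.6, so the groups overlapped there.

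Osmr, the receptor subunit that binds oncostatin M together with gp130, was also higher in astrocytes and tanycytes. Astrocytes of FGF1 mice had 207, 229 and 187 CPM and those of vehicle mice 15.3, 17.4 and 6.5. The lowest FGF1 mouse was far above the highest vehicle mouse, and the mean rose from 13.1 ± 5.8 to 208 ± 21.0 CPM, or 3.84 ± 0.48 on the log2 scale (edgeR FDR 0.0035). Tanycytes had 106, 226 and 151 CPM with FGF1 and 18.1, 9.4 and 53.8 with vehicle, again without overlap, and rose by 2.74 ± 0.61 (edgeR FDR 0.0148). The astrocyte call was lost without vehicle replicate 1 (FDR 0.0644), and the tanycyte call without vehicle replicate 1 (FDR 0.123) or 2 (FDR 0.0685). Vascular and leptomeningeal cells (VLMC), fibroblast-like cells of the vessels and meninges, had 279 and 352 CPM in the 2 FGF1 mice with enough nuclei and no UMI in 3 vehicle mice (15 against 0 UMIs, at least 9.6-fold higher). In ependymal cells the groups overlapped (179 ± 60.3 against 97.4 ± 90.7 CPM), and Agrp neurons had no Osmr UMI in either group.

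Stat3, the transcription factor downstream of gp130 and leptin receptors, was the member with the broadest difference. Its mean was higher with FGF1 in 18 of 18 types and the mice did not overlap in 15, where 7.97% of all tested genes were apart in that direction. These types come from the same mice, so they are not separate replicates of the difference. It could be tested in 17 types, of which 15 had an unadjusted p below 0.05 and 2 passed the FDR. In nuclei labelled Olig, FGF1 mice had 153, 192 and 191 CPM and vehicle mice 41.3, 41.0 and 56.3. This rise of 1.97 ± 0.30 on the log2 scale had an edgeR FDR of 0.0177, in a label where 0.222% of genes passed. In COP nuclei the values were 194, 226 and 244 against 66.2, 50.4 and 27.3 CPM. This rise was 2.17 ± 0.37 (edgeR FDR 0.0393, with 0.0892% of genes passing). Both calls were lost in most fits that left out 1 mouse. The log2 fold change stayed between 1.88 and 2.11 in Olig and between 1.91 and 2.50 in COP nuclei over all alternatives. The Olig call was lost without FGF1 replicate 2 or 3 or vehicle replicate 1 or 2 (FDR 0.0695 to 0.2). The COP call was lost on leaving out any mouse except FGF1 replicate 1 (FDR 0.0812 to 0.233). Both were also lost with the replicate number as a block in the fit (edgeR FDR 0.0684 and 0.0897).

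Astrocyte Stat3 was 340, 596 and 434 CPM with FGF1 and 137, 87.1 and 163 with vehicle. The groups did not overlap, and the difference of 1.84 ± 0.51 on the log2 scale did not pass (edgeR FDR 0.139), though it did with DESeq2 (FDR 0.0214), without FGF1 replicate 1 (FDR 0.0413) and with nuclei limited by their mitochondrial and ribosomal UMIs (FDR 0.00664). The largest fold change was in n23.Sst/Unc13c neurons (396 ± 60.3 against 73.1 ± 10.5 CPM, log2 2.45, edgeR FDR 0.111), which passed with no low-count filter (FDR 0.00795) and without FGF1 replicate 1 (FDR 0.00805). In n29.Nr5a1/Adcyap1 neurons Stat3 was at 164 ± 35.3 against 54.3 ± 26.4 CPM (log2 1.65, edgeR FDR 0.0902), which passed with DESeq2 (FDR 0.0184), with no low-count filter (FDR 3.4e-05) and without FGF1 replicate 1 (FDR 0.00169). The neurons left unassigned had 125 ± 25.8 against 44.8 ± 8.7 CPM (log2 1.48, edgeR FDR 0.188) and passed with DESeq2 (FDR 4.5e-04). Ependymal cells had the highest vehicle level and the smallest fold change of the types tested, 564 ± 54.6 against 518 ± 92.5 CPM (log2 0.12, edgeR FDR 0.826), although 19.0% of all genes tested in ependymal cells passed.

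Socs2, an inhibitor of growth hormone and Stat5 signaling, rose in Agrp neurons, the cells of the arcuate nucleus that drive feeding and respond to leptin. FGF1 replicates 1, 2 and 3 had 333, 238 and 355 CPM there and vehicle replicates 1, 2 and 3 had 57.1, 26.4 and 0. The UMIs behind these were 41, 17 and 10 in 96, 33 and 16 nuclei, against 5, 2 and 0 in 29, 38 and 15 nuclei. The groups did not overlap, and the mean of 309 ± 62.3 against 27.8 ± 28.6 CPM was a change of 3.04 ± 0.55 on the log2 scale (edgeR FDR 0.045), where 0.298% of genes tested in Agrp neurons passed. The call was lost without any one of the 6 mice (FDR 0.0688 to 0.155) and with at least 20 nuclei per mouse (FDR 0.464). It was also lost with the replicate number as a block (edgeR FDR 0.0703). The fold change lay between 2.72 and 3.93 throughout. Unassigned neurons had 22.4 ± 3.8 against 7.9 ± 1.2 CPM, also without overlap (log2 1.49 ± 0.28, edgeR FDR 0.338). The neurons labelled GABA15 also had Npy, Agrp and Lepr among their leading genes, and gave 2 mice per group. Socs2 there was 158 and 82.3 CPM in FGF1 replicates 1 and 2 and 0 and 34.1 in vehicle replicates 1 and 2 (12 against 2 UMIs), and Socs3 was 87.6 and 54.9 CPM against 0 and 0 (7 against 0 UMIs, at least 2.4-fold higher). Both were apart between the groups and had too few counts for a test, while Stat3 was 421 and 494 against 53.9 and 188 CPM, also apart, and did not pass (log2 1.78 ± 0.59, edgeR FDR 0.997). Over all types the mean of Socs2 was higher with FGF1 in 15 of 18 and the groups were apart in 8, where 7.97% of all tested genes were. Only 2 of the 18 types could be tested, and vehicle mice had no Socs2 UMI in 3. The groups were apart in 7 neuron types, of which 3 had 3 mice in each group.

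Other genes of the leptin arm in Agrp neurons gave a mixed picture. Stat3 was 415, 603 and 817 CPM with FGF1 and 308, 277 and 139 with vehicle, apart but not called (log2 1.19 ± 0.38, edgeR FDR 0.241). Lepr, the leptin receptor, was at 633 ± 50.8 and 900 ± 495 CPM (log2 -0.44 ± 0.39, edgeR FDR 0.763). Jak2 (40.4 against 36.6 CPM) and Stat5b (121 ± 12.6 against 90.9 ± 21.6 CPM) had too few counts for a test, and Socs1 had no UMI. Serpina3n, a protease inhibitor induced in reactive glia, rose in these neurons by 4.82 on the log2 scale (edgeR FDR 0.0163).

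The receptor subunits Il6st and Lifr did not share the pattern of Osmr on Day 1. Astrocyte Il6st was 54.4, 66.5 and 66.8 CPM with FGF1 and 50.9, 25.2 and 104 with vehicle, and the groups overlapped. Lifr in astrocytes was at 88.7 ± 15.7 and 103 ± 62.4 CPM. None of their 5 tests passed (edgeR FDR 0.879 to 0.992, 0 with an unadjusted p below 0.05 and 0 by DESeq2). Il6st was lower with FGF1 without overlap in tanycytes (29.3 ± 11.1 against 75.5 ± 43.5 CPM) and ependymal cells (59.4 ± 59.3 against 196 ± 104 CPM), neither of which could be tested. It was higher without overlap in n23.Sst/Unc13c neurons (67.7 ± 40.8 against 6.4 ± 11.0 CPM, 13 against 1 UMIs). Lifr was lower without overlap in Olig nuclei (11.1 ± 4.9 against 21.3 ± 3.5 CPM) and GABA15 neurons (1 against 5 UMIs) and higher in n06.Oxt neurons (5 against 3 UMIs), all untested. In GABA15 and n06.Oxt neurons a group had fewer than 3 mice. Each of the 2 genes was thus apart in 1 of 18 types with FGF1 higher and in 2 with FGF1 lower. Among all tested genes 7.97% and 7.82% were, so these counts do not set Il6st and Lifr apart. Cish, the first described member of the Socs family, had 35 UMIs in FGF1 and 13 in vehicle nuclei over the 18 types and was never tested.

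In the neuron types of Day 1, calls among Stat3-responsive genes were few: Serpina3n passed in Agrp neurons and Gfap in n29.Nr5a1/Adcyap1 neurons, and 0 of 11 tests passed in the unassigned neurons. By overlap alone, and for 4 genes of that list chosen after their values were seen, of 11 neuron types Serpina3n was higher with FGF1 without overlap in 11, Timp1 in 10, Gfap in 9 and Vim in 8, beside Stat3 in 9, Socs2 in 7, Socs3 in 4 and Osmr in 0, where 7.72% of all genes tested in these types were higher without overlap. In 5 of the 11 types a group had fewer than 3 mice. In the other 6 types, where that share was 6.45%, Serpina3n, Timp1 and Gfap were apart in 6, Vim and Stat3 in 5, Socs2 in 3 and Socs3 in 2. Gfap, an astrocyte filament protein, reached means of 37.7 to 189.8 CPM in the neuron types of FGF1 mice against 0 to 20.5 in vehicle mice. The part of glial RNA in the neuronal Stat3, Socs2 and Socs3 values was not tested. Marker sums differed as well: in tanycytes the 6 astrocyte markers summed to 1222 to 2089 CPM with FGF1 and 3158 to 5204 with vehicle, the 5 ependymal markers to 83.7 to 136 and 271 to 421, and the 5 oligodendrocyte markers to 67.0 to 83.8 and 126 to 145. In Agrp neurons the 4 neuron markers summed to 1599 to 2627 CPM with FGF1 and 2737 to 4246 with vehicle, and the 5 oligodendrocyte markers to 0 to 70.1 and 104 to 211. The 6 astrocyte markers there overlapped, at 35.5 to 219.6 CPM with FGF1 and 34.6 to 409 with vehicle, and 2 of the 6 had the higher mean with FGF1. In COP nuclei the sum of the 4 precursor markers was higher with FGF1 (601 to 668 against 381 to 452 CPM). The sums of the 5 tanycyte markers (130.0 to 323 against 333 to 521 CPM) and 5 oligodendrocyte markers (139 to 160.0 against 164 to 291 CPM) were lower. Of those 5 oligodendrocyte markers 1 had the higher mean with FGF1. In Olig nuclei the sum of their own 5 oligodendrocyte markers was lower (479 to 740.2 against 837 to 902 CPM) and that of the 4 COP markers higher (114 to 228 against 44.3 to 73.6 CPM). The mean was higher with FGF1 for 1 of the 5 and for 3 of the 4. In astrocytes the sum of the 4 neuron markers was lower (808 to 1302 against 1307 to 2041 CPM). The sums of the 4 endothelial markers (109.9 to 234 against 36.8 to 78.3 CPM) and 3 smooth muscle markers (13.4 to 35.9 against 0 to 6.5 CPM) were higher. The mean was higher with FGF1 for 3 of the 4 endothelial and 2 of the 3 smooth muscle markers, and 1 in each set was apart by itself. The part of these shifts in the 7 calls was not tested. The metadata name 3 batches of 1 FGF1 and 1 vehicle mouse each. With the batch as a block in the fit, Socs3 in both glial types and Osmr in astrocytes still passed, and Osmr in tanycytes (edgeR FDR 0.0563), Socs2 in Agrp neurons (0.101), Stat3 in COP nuclei (0.278) and Stat3 in Olig nuclei (0.183) did not.

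Among other genes of the pathway, the Stat3-responsive list had the most calls on Day 1. It held 20 genes, 19 in the files, and 15 of its 56 tests over types were higher with FGF1 and 0 lower, where 0.653% of all tests were called higher. Timp1, an inhibitor of matrix proteases, rose by 7.76 on the log2 scale in astrocytes, 6.56 in tanycytes and 7.60 in VLMC. Vim, an intermediate filament gene, rose by 4.20 in astrocytes, 2.79 in tanycytes, 2.44 in ependymal cells and 3.15 in Olig nuclei. The list's median log2 fold change was 2.52 in astrocytes and 1.63 in tanycytes, where the medians of all genes were -0.0085 and 0.027. These medians and the 15 calls cover only genes with enough counts, 8 of the 19 in astrocytes. Some can have enough through the FGF1 group alone, such as Timp1 in astrocytes (474 to 1062 CPM against 0 to 5.8 with vehicle). The list was also drawn up with earlier results of these data known, so its excess is no support for a shift of the list. Of the gp130 ligands, only Clcf1 could be tested, in astrocytes, where it rose by 5.23 (edgeR FDR 0.0114). None of 39 tests of other cytokine receptors and none of 32 of Jak kinases and other Stat factors passed, and of 64 tests of other inhibitors 1 did, Socs5 in astrocytes (log2 2.13, edgeR FDR 0.0325).

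On Day 5, no member passed the test in nuclei, where 0.288% of all tests did. Of 77 combinations of members and 11 types, 14 were tested, 2 of them at an unadjusted p below 0.05, and DESeq2 called 0. The groups did not overlap in 14 of the 77 with FGF1 higher and in 8 with FGF1 lower, but 63 of the 77 were untested. Of the 14 tested ones 5 were higher and 3 lower without overlap, against 19.9% and 19.0% of all tested genes. With so few tests and 2 mice per group, these counts do not set the members apart in either direction. Socs3 had no UMI in any vehicle type and 3 UMIs in all FGF1 types. Astrocyte Osmr was 20.0 and 8.6 CPM in FGF1 replicates 37 and 45 and 1.6 and 14.1 in vehicle replicates 28 and 38, so the groups overlapped. Agrp-neuron Socs2 was 0 and 20.1 CPM with FGF1 and 13.5 and 0 with vehicle, each nonzero value resting on 1 UMI. Tanycytes and ependymal cells had too few Day 5 nuclei to be tested.

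Il6st was the member nearest to the threshold in Day 5 nuclei. Astrocytes of FGF1 mice had 113 and 99.6 CPM and those of vehicle mice 40.7 and 21.2, without overlap, as 2 mice against 2 often are. The mean was 106 ± 9.3 against 30.9 ± 13.8 CPM (SD, n = 2 and 2), a difference of 1.57 ± 0.41 on the log2 scale that did not pass (edgeR FDR 0.0873) but did with no low-count filter (FDR 0.0269). Astrocyte Stat3 was 133 and 117 against 61.8 and 77.7 CPM (log2 0.89 ± 0.38, edgeR FDR 0.306). In these astrocytes the 3 Agrp-neuron markers summed to 72.7 to 330 CPM with FGF1 and 599 to 1094 with vehicle, the 4 pericyte markers to 5.0 to 11.8 and 19.5 to 49.4, the 5 ependymal markers to 175 to 234 and 106 to 166, and the 4 COP markers to 128 to 162 and 83.0 to 113. Their part in the result was not tested.

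The Day 1 and Day 5 effects were compared through a treatment by day term, which 0.00784% of all tests passed. None of 27 member tests passed (lowest edgeR FDR 0.132), and 6 had an unadjusted p below 0.05, all lower on Day 5 than on Day 1. The largest such change was Stat3 in COP nuclei, -2.64 ± 0.63 on the log2 scale, Day 5 minus Day 1. For Socs2 in Agrp neurons the change was -2.75 ± 2.31 (edgeR FDR 0.937), an interval too wide to show either a difference or its absence. Socs3 in astrocytes was among the 27 tests, but its term could not be estimated (-6.74, SE 7471) because Socs3 was near 0 on Day 5. That test could not show a difference between days. Socs3 and Osmr in tanycytes had no Day 5 test and so no such term.

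**Figure D2:**
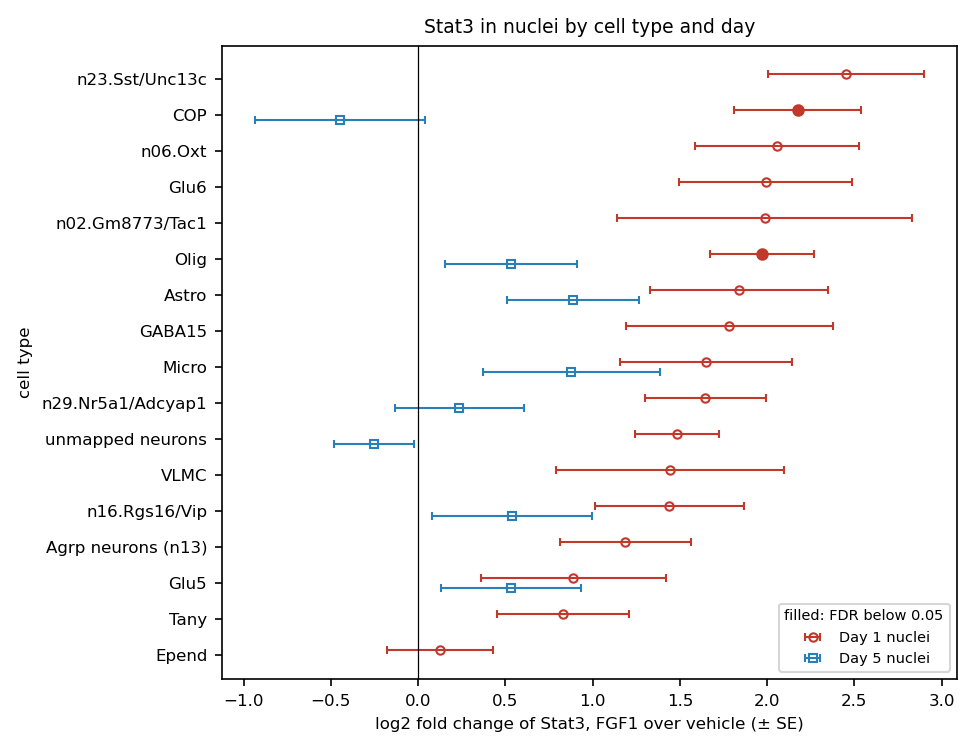
Log2 fold change of Stat3, FGF1 over vehicle, with its standard error in each nuclear cell type on Day 1 and Day 5. Day 1 estimates run from 0.12 in ependymal cells to 2.45 in n23.Sst/Unc13c neurons, and Day 5 estimates from -0.45 to 0.89.

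In Day 5 whole cells, where clusters are numbered and were named from markers, no member passed in any of 16 clusters, against 1.75% of all tests. Of 112 combinations 37 were tested, 2 had an unadjusted p below 0.05, and DESeq2 called 1. That one was Socs3 in cluster 0, the largest tanycyte-like cluster. By batch, with the FGF1 mouse first, its values were 77.3 and 29.0, 153 and 40.4, 288 and 50.5, 188 and 72.2, 119.6 and 59.9, and 47.4 and 70.3 CPM. The FGF1 mouse was higher in 5 of 6 batches, and the groups overlapped through replicate 36. The mean was 145 ± 86.0 against 53.7 ± 17.0 CPM (SD, n = 6 and 6), a difference of 1.19 ± 0.42 on the log2 scale (edgeR FDR 0.143, DESeq2 FDR 0.03, edgeR FDR 0.0427 without FGF1 replicate 36). In that cluster the 6 astrocyte markers summed to 3010 to 4021 CPM with FGF1 and 4762 to 5589 with vehicle, and their part in the result was not tested. Microglia-like cluster 8, led by the immune genes Ccl4, Il1a and Tnf, had 239 ± 38.0 against 159 ± 58.3 CPM of Socs3 (log2 0.49 ± 0.21, edgeR FDR 0.322). Socs3 fell under the low-count filter in OPC-like cluster 5 (56.2 ± 25.8 against 18.1 ± 7.2 CPM), oligodendrocyte-like cluster 2 (17.8 ± 13.3 against 5.0 ± 2.4 CPM) and astrocyte-like cluster 4 (16.3 ± 7.2 against 2.8 ± 4.7 CPM). The FGF1 mouse was higher in 6 of 6 batches in each of these clusters, although the groups as a whole overlapped. Other clusters of the same names did not share this: the FGF1 mouse was higher in 2 of 6 batches in astrocyte-like cluster 1 and in 0 of 4 in oligodendrocyte-like cluster 12, as it was in 2 of 6 in ependymal-like cluster 6. Over all clusters the Socs3 mean was higher with FGF1 in 11 of 16. With no low-count filter, cluster 5 passed (log2 1.58, edgeR FDR 3.0e-05). The 4 COP markers summed to 1072 to 1339 CPM with FGF1 and 1347 to 1638 with vehicle in cluster 5, and to 124 to 216 and 35.3 to 92.5 in cluster 4, and their part in these results was not tested.

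**Figure D3:**
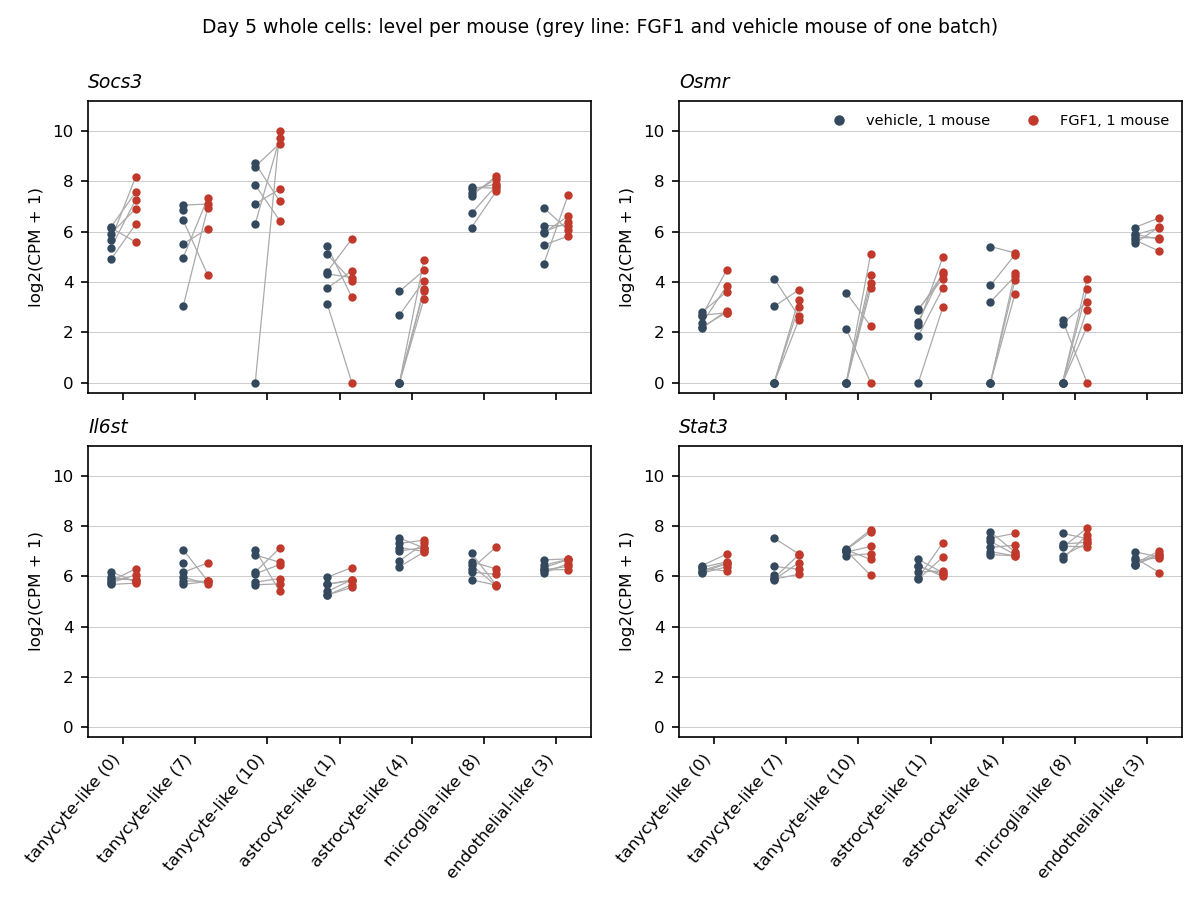
Day 5 levels of Socs3, Osmr, Il6st and Stat3 per mouse in tanycyte-like clusters 0, 7 and 10, astrocyte-like clusters 1 and 4, microglia-like cluster 8 and endothelial-like cluster 3, with grey lines joining the FGF1 and vehicle mouse of each batch. Socs3 in cluster 0 is higher with FGF1 in 5 of 6 batches, and Osmr in cluster 1 in 6 of 6.

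Osmr counts were low in these cells, and a test was possible only in endothelial-like cluster 3 (62.6 ± 19.7 against 56.1 ± 8.8 CPM, edgeR FDR 0.864). In astrocyte-like cluster 1 the 6 FGF1 mice ranged from 7.0 to 30.8 CPM and the 6 vehicle mice from 0 to 6.6. Of the 37 tested combinations 0 were higher without overlap, where 0.85% of all tested genes were. Osmr in cluster 1, itself untested, was the only combination of the 112 in which the groups did not overlap. It rested on 26 and 38 UMIs. It passed only with no low-count filter (log2 1.67, edgeR FDR 0.0315) or without FGF1 replicate 28 (FDR 0.0349). Lifr had fold changes between -0.29 and 0.0016 on the log2 scale over its 6 tests.

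Merging clusters of 1 name changed the account of astrocyte-like cells. Il6st was then higher with FGF1 by 1.13 ± 0.15 on the log2 scale (edgeR FDR 6.0e-06), Osmr by 1.89 ± 0.32 (edgeR FDR 3.5e-04) and Stat3 by 0.47 ± 0.16 (edgeR FDR 0.0491). Socs3 (log2 -0.37 ± 0.32, edgeR FDR 0.503) and Lifr (log2 -0.22 ± 0.16, edgeR FDR 0.404) did not pass in the merged cells, and the sign for Socs3 was opposite to that in cluster 4. Within clusters 1 and 4 taken singly, Il6st differed by 0.29 and 0.12, neither of which passed (edgeR FDR 0.698 and 0.947). The FGF1 mouse had more Il6st in 6 of 6 batches in cluster 1 and in 4 of 6 in cluster 4. Cluster 4 had the higher vehicle level of Il6st, 131 ± 37.3 CPM against 46.4 ± 9.6 in cluster 1. It made up 47.9% to 93.1% of the 2 clusters in FGF1 mice and 3.74% to 18.4% in vehicle mice, so the merged values mix the level within a cluster with the share of clusters. In merged tanycyte-like cells Osmr was higher by 1.27 ± 0.31 (edgeR FDR 0.0172). By single cluster, the FGF1 mouse had more Osmr in 6 of 6 batches in cluster 0, 4 of 5 in cluster 7 and 4 of 6 in cluster 10.

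Pathway genes on Day 5 gave few calls, where 0.288% of all tests in nuclei and 1.75% in whole cells passed in either direction. In nuclei, 1 of 32 tests of Stat3-responsive genes passed, Serpina3n in astrocytes (log2 2.25), and none of the 40, 35 and 69 tests of other receptors, of Jak and Stat genes and of other inhibitors did. In whole cells, 9 of 88 Stat3-responsive tests were higher with FGF1, 7 of them Vim, with Serpina3n in cluster 1 (log2 0.88) and Gfap in cluster 3 (log2 1.26). The clusters behind these calls share the same mice. As the list was drawn up with earlier results of these data known, its calls are no support for a shift of the list. Cntfr, the ciliary neurotrophic factor receptor, fell in cluster 0 (log2 -1.14, edgeR FDR 0.00354), 1 of 39 receptor tests. None of 36 Jak and Stat tests, 71 inhibitor tests and 2 ligand tests passed.

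In Day 5 vehicle cells, Socs3, Stat3 and Il6st had their highest mean in the same cluster, and Socs2 and Cish shared another. Socs3 was highest in VLMC-like cluster 13 (502 ± 406 CPM), then tanycyte-like cluster 10 (209 ± 169) and microglia-like cluster 8 (159 ± 58.3), and lowest in astrocyte-like cluster 4 (2.8). In Day 5 vehicle nuclei Socs3 had no UMI in any of the 11 types, astrocytes and microglia among them and tanycytes and VLMC not. Per the methods, tissue for whole cells was digested with enzymes, while nuclei came from frozen tissue. The part of the preparation in these levels was not tested. Osmr was highest in pericyte-like cluster 15 (74.4 ± 56.3 CPM), VLMC-like cluster 13 (63.6 ± 22.4) and endothelial-like cluster 3 (56.1 ± 8.8), cells of the vessel wall and meninges. Lifr led in astrocyte-like clusters 1 (109 ± 33.2 CPM) and 4 (107 ± 31.2) and in precursor-like cluster 5 (99.7 ± 21.0). Neighbors in these orders mostly overlapped within their SD, the exceptions being cluster 3 above 16 for Osmr, 0 above 2 for Stat3 and 2 above 11 for Socs2. Il6st (299 ± 191 CPM) and Stat3 (160.1 ± 149.9 CPM) were also highest in cluster 13, and Socs2 and Cish in endothelial-like cluster 3 (42.8 ± 8.3 and 12.3 CPM). In Day 1 vehicle nuclei, Stat3, Socs3 and Osmr were highest in ependymal cells and Il6st, Lifr and Socs2 in VLMC. Of these leads only that of Stat3 was beyond the SD of the next type (518 ± 92.5 CPM, against 275 ± 97.3 in tanycytes). Socs3 in ependymal cells rested on 5 UMIs and Socs2 in VLMC on 7.

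**Figure D4:**
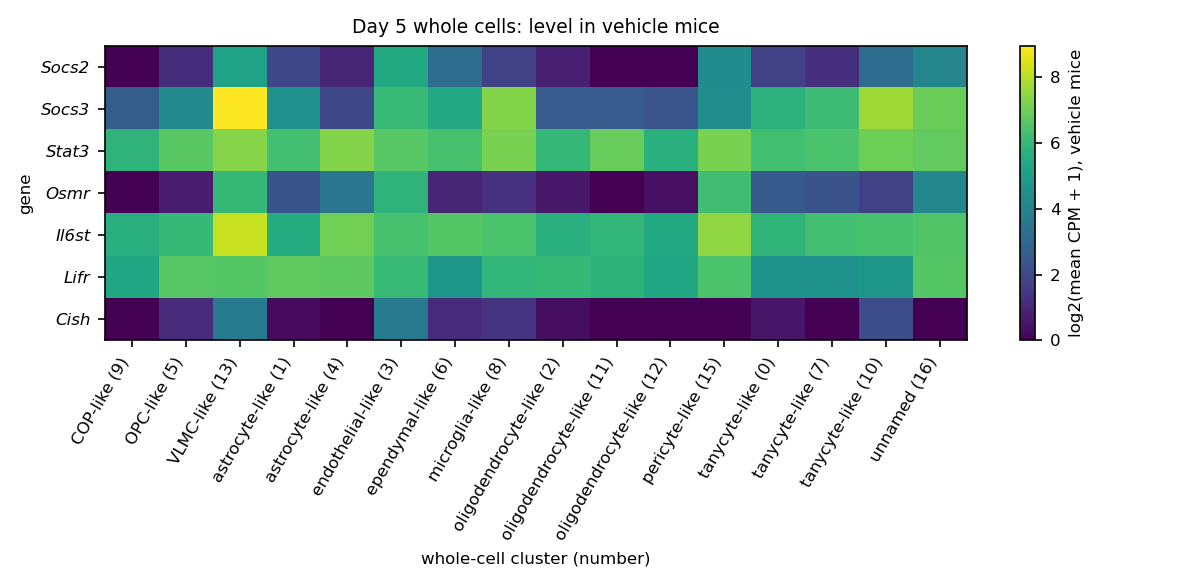
Heatmap of mean vehicle levels of the 7 genes in 16 clusters of Day 5 whole cells. Socs3 peaks in cluster 13 at 502 CPM, Osmr in cluster 15 at 74.4 CPM and Lifr in cluster 1 at 109 CPM.

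The genes most like each member over the 16 clusters were found by Pearson's r among 11998 genes, as a description over clusters that share the same 6 vehicle mice. Osmr was closest to Ppic (0.98), Socs2 to Podxl (0.94), Socs3 to Tmem37 (0.92) and then Fosb (0.91). Il6st was closest to Ccpg1 (0.91), Lifr to Dbx2 (0.89), Cish to Hspa12b (0.89) and Stat3 to Slc25a28 (0.85).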

How the data were processed

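The authors aligned 10x 3′ libraries to GRCm38 with Cell Ranger 1.2, counting introns for nuclei, and deposited raw UMI counts per gene and barcode, with metadata giving mouse, batch and cell type or cluster. For whole cells the authors deposited the percent of mitochondrial and ribosomal UMIs. Per the methods, neurons and doublets were removed from whole cells before deposit, and no doublet caller was run on nuclei or here. Counts were summed per mouse and type, with at least 10 cells per mouse and 2 mice per group. After filterByExpr and TMM scaling, edgeR 4.0.16 (R 4.3.3; glmQLFit, glmQLFTest, no covariates) tested FGF1 against vehicle, with Benjamini-Hochberg FDR below 0.05 over all genes of a type. DESeq2 1.42.0 was an alternative. The SE is implied by edgeR's F statistic. The script was tested on simulated data. The interaction used the 4 groups of nuclei. Whole-cell clusters were named from marker genes, and such names can differ from those of the study. The members and gene lists were chosen with earlier results of these data known. The text names the 7 members throughout, up to 3 genes past the threshold per list and type, Lepr, Socs1, Jak2 and Stat5b in Agrp neurons, and the genes with the highest correlation with each member. Gfap, Vim, Timp1 and Serpina3n in neuron types were singled out after their values were seen. The normalized nuclear values were not used here.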

Additional observations from a re-analysis of the deposited data

Results flagged for a closer look

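In Day 5 whole cells, 6 of 74 groups held a mouse far from the others of its group by Dixon's criterion, where chance gives about 1 in 20. Il6st was 80.5 CPM in FGF1 replicate 7 of cluster 1 (next 57.1), 91.5 in FGF1 replicate 21 of cluster 7 (next 55.0), 143 in FGF1 replicate 21 of cluster 8 (next 77.5) and 36.6 in vehicle replicate 20 of cluster 5 (next 62.7). Socs3 was 176 CPM in FGF1 replicate 7 of cluster 3 (next 97.4), and Stat3 was 182 CPM in vehicle replicate 27 of cluster 7 (next 83.3).

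A further 300 Day 1 nuclei carry a filtered mark in place of a cell type and were left out of the comparisons. In them Socs2 averaged 23.1 CPM in FGF1 and 4.15 in vehicle mice and Osmr 28.2 and 7.34 CPM, both without overlap between the groups. The other 5 members overlapped there, among them Stat3 (109 to 228 against 46.7 to 121 CPM) and Socs3 (7.9 to 22.6 against 0 to 9.6 CPM). In the 360 such nuclei of Day 5 all 7 members overlapped, and Socs2 averaged 7.83 CPM in FGF1 and 14.1 in vehicle mice.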

How the results depend on the processing

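The 7 Day 1 calls became 11 with no low-count filter, 4 with the replicate block and 3 with the batch of the metadata as a block, the last chosen after seeing the data. Leaving out 1 mouse gave 0 to 9, with 0 without vehicle replicate 1, 3 without FGF1 replicate 2 or vehicle replicate 2 and 4 without FGF1 replicate 3. Between Day 1 mice of 1 replicate number, median correlations of deviations were -0.12, -0.16 and 0.16, the last reaching 0.47 in 1 type. Between mice of 1 batch they were -0.26, 0.027 and -0.24. Deviations from a mean of 3 mice are tied to one another, so these values cannot show whether the mice were paired. The paper reports a strong batch effect among its nuclear samples. In Day 5 nuclei the 0 calls became 1 with no low-count filter. Leaving out a mouse gave 0 to 1 there, but leaves 1 mouse in an arm, assumed to vary like the other group, so the 1 call without vehicle replicate 38 is no support for it. In Day 5 cells the 0 calls became 1 with DESeq2, 2 with no low-count filter, 4 with merged clusters, and 0 to 1 leaving out a mouse. The interaction gave 0 under every alternative run. Of 264 alternative values for the 21 Day 1 results at an edgeR p below 0.05, 28 fell below the threshold, 9 passed newly and 0 reversed. Only the 7 calls could fall below it. Socs3 in astrocytes, Socs3 in tanycytes and Osmr in astrocytes each lost the call in 1 of 13 alternatives. Osmr in tanycytes lost it in 3 of 12, Socs2 in Agrp neurons in 9 of 12, and Stat3 in COP and Olig nuclei in 7 and 6 of 13. The cause was not tested. Osmr in tanycytes gave no value without FGF1 replicate 2, and DESeq2 gave no adjusted p for Socs2 in Agrp neurons. Few nuclei of Agrp neurons, VLMC and ependymal cells limit what could be tested there.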
